A study of Mus musculus with 16 samples.

Results

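The guanylate-binding protein genes of the mouse were examined in embryonic stem cells in which the homeodomain repressors Tgif1 and Tgif2 had been perturbed. Every probe set whose annotation gave a single gene symbol of the form Gbp followed by a digit was taken, which gave 8 probe sets for 6 genes (Gbp2, Gbp2b, Gbp3, Gbp6, Gbp7 and Gbp8), out of 20380 probe sets for 12393 genes on the array. The family was singled out for its higher signal in the overexpression groups, so the values against BirA control are given below as a description with no test, and the genes were tested only in the Tgif1 knockdown, which shares no array with those comparisons. RNA was hybridized to 16 Affymetrix Mouse 430A 2.0 arrays, and the values are log2 intensities per probe set. All cells were of the J1 line, kept on gelatin in medium with serum and LIF. The groups were Tgif1 KD (Tgif1 knockdown, 2 arrays) with shControl (control knockdown, 2 arrays), and Tgif1 OE (4 arrays) and Tgif2 OE (4 arrays), labelled as overexpressing Tgif1 or Tgif2, with BirA control (cells overexpressing the biotin ligase BirA, 4 arrays). The sources used here do not give the promoter of the transgenes or the number of clones. The labels do not say whether replicates came from separate cultures, so p-values measure the spread between these arrays, which may be technical.

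Guanylate-binding proteins are large GTPases that interferons induce in many cell types, interferon-gamma most of all. IRF1 is among the transcription factors known for switching their genes on. In infected cells the proteins gather on the vacuoles and membranes of intracellular pathogens, break them open, and expose the contents to inflammasomes and to the autophagy machinery. Several members are attached to membranes through a prenyl group at their end. Mouse embryonic stem cells are known for a weak interferon response.

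The targeted genes were checked first. The Tgif1 probe set stood at 7.46 and 7.12 log2 on the Tgif1 KD arrays, against 10.71 and 10.66 on the shControl arrays, and fell by 3.39 ± 0.10 log2 (SE, limma adjusted p = 3.88e-11). On the arrays labelled Tgif1 OE it was lower than on BirA control, at 10.12 ± 0.10 against 10.69 ± 0.04 (SD, n = 4 each; -0.58 ± 0.07, adjusted p = 5.52e-05). The Tgif2 probe set stood at 9.37 ± 0.09 on the arrays labelled Tgif2 OE, against 9.26 ± 0.08 on BirA control (SD, n = 4 each; adjusted p = 0.208). The files do not say whether either probe set can bind the transgene's RNA, and the direction of the perturbation in those groups rests on the labels. On the Tgif2 OE arrays the median of all values lay between 6.52 and 6.56 log2, against 6.41 to 6.51 on the other 12 arrays, and the median change of all genes was 0.12 log2 for Tgif2 OE minus BirA control, 0.01 for Tgif1 OE minus BirA control and -0.05 for Tgif1 KD minus shControl. Changes of the family for Tgif2 OE are therefore given relative to that median unless named as deposited. For other genes both values are given, and the adjusted p belongs to the deposited change. The Tgif2 OE arrays were handled apart in the submitters' processing, so this handling and the group cannot be told apart. Of the 10 embryonic stem cell markers, all measured, the summed linear intensity ran from 47555 to 54057 on Tgif1 OE, from 56128 to 65291 on Tgif2 OE and from 57010 to 63514 on BirA control arrays, and from 76721 to 78352 on Tgif1 KD, against 65888 to 66112 on shControl arrays.

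The mouse family lies in 2 clusters, given here by the RefSeq annotation of GRCm38.p6. The cluster on chromosome 3 holds 5 genes over 141.1 kb, and 4 of them had a probe set: Gbp7 (142530336 to 142550151), Gbp3 (142560016 to 142573213), Gbp2b (142594816 to 142619179) and Gbp2 (142620663 to 142638008), all on the forward strand. The cluster on chromosome 5 holds 6 genes over 334.0 kb, and 2 of them had a probe set: Gbp8 (105012513 to 105053609) and Gbp6 (105270702 to 105295871). Gbp2 and Gbp2b are close relatives that lie next to each other, and the brighter of the Gbp2 probe sets is of a kind that may bind related transcripts, so their signals may share a source.

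The promoter sequences of the 4 chromosome 3 members are shown because these are the members whose signal differed most between groups, and because the interferon-stimulated response element is the best known switch of the family. Each is the 250 bases before the start site listed in RefSeq's promoter table, on the forward strand of GRCm38.p6, 5′ to 3′: chr3:142620413-142620662 for Gbp2, chr3:142594597-142594846 for Gbp2b, chr3:142559794-142560043 for the first of the 2 listed Gbp3 starts, and chr3:142530086-142530335 for Gbp7. Capitals mark matches on either strand to the core of that element, which is GAAA, then 2 bases of any kind, then GAAA again.
Gbp2: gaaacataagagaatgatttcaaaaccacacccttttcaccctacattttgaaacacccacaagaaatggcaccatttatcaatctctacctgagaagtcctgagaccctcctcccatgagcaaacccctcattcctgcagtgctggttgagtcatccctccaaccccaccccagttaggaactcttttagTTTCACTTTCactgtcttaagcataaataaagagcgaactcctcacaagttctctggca
Gbp2b: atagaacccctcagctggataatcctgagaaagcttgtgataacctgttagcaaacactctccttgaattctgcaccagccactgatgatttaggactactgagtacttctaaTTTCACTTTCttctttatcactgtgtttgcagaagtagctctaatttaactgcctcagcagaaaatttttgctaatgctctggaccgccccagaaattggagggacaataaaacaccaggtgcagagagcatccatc
Gbp3: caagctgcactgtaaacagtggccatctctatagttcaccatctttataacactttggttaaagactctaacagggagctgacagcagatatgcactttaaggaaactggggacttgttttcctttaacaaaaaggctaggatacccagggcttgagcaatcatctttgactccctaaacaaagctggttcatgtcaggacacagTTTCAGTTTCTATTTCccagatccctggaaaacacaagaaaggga
Gbp7: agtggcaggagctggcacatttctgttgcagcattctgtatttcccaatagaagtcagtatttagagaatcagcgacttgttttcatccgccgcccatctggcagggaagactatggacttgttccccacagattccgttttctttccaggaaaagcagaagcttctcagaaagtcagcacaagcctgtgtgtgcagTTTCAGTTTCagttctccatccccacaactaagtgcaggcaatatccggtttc
Each of these 4 windows held the core, read on the reverse strand. Positions are counted back from that listed start site, the base before it being -1; for Gbp2b and Gbp3 it lies inside the gene as given above, so that these windows reach past the gene's first base. In the Gbp2 window the core lay at -59 to -50, with the same 10 letters as the Gbp2b match, which lay at -137 to -128. In the Gbp7 window it lay at -53 to -44. The Gbp3 window held 2 overlapping matches, at -45 to -36 and at -39 to -30, while the window before the second Gbp3 start held none. Of 32851 mouse promoter windows of the same length, 2.98% held the core. The gamma-activated site, written TTCNNNGAA, was found among these windows in that of Gbp7 only, at -106 to -98 and at -87 to -79, and in 7.02% of all windows. A loose NF-kB pattern, GGG followed by 5 bases of any kind and CC, matched once in the Gbp2b window and in 45.8% of all windows. The TGIF core TGACAG matched once in the Gbp3 window, at -171 to -166, and in 15.9% of all windows. These are matches of letters, not sites shown to be bound.

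Gbp2 and Gbp2b, interferon-inducible members known for defence against Toxoplasma, had the largest differences of the family between Tgif1 OE and BirA control. The brighter Gbp2 probe set read 8.46, 8.22, 9.13 and 9.01 log2 on the 4 arrays labelled Tgif1 OE, 7.28, 7.41, 8.77 and 8.72 on the 4 arrays labelled Tgif2 OE, and 5.42, 5.78, 5.85 and 6.07 on the 4 BirA control arrays. Every array of both overexpression groups was above every BirA control array, and the Tgif1 OE and Tgif2 OE groups overlapped. The means were 8.71 ± 0.44 for Tgif1 OE, 8.04 ± 0.81 for Tgif2 OE and 5.78 ± 0.27 for BirA control (SD, n = 4 each). Gbp2 was thus 2.92 log2 or 7.58-fold higher on Tgif1 OE than on BirA control, and 2.14 log2 or 4.42-fold higher on Tgif2 OE relative to the median change. The second Gbp2 probe set had the same order, with 2.76 log2 for Tgif1 OE and 1.71 for Tgif2 OE as deposited, and it differed from the brighter probe set by -0.57 to 0.68 log2 over the 16 arrays.

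Gbp2b, earlier known as mouse Gbp1, read 8.38, 8.33, 9.16 and 9.09 log2 on Tgif1 OE, 6.97, 7.13, 8.32 and 8.35 on Tgif2 OE, and 5.49, 5.86, 5.92 and 5.93 on BirA control arrays. It separated the overexpression arrays from the BirA control arrays in the same way as Gbp2, with an overlap between Tgif1 OE and Tgif2 OE. The means were 8.74 ± 0.45, 7.69 ± 0.75 and 5.80 ± 0.21 for Tgif1 OE, Tgif2 OE and BirA control (SD, n = 4 each). The difference from BirA control was 2.94 log2 or 7.66-fold for Tgif1 OE and 1.77 log2 or 3.42-fold for Tgif2 OE relative to the median change.

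Gbp3, another interferon-induced member of the chromosome 3 cluster, had the opposite order of the overexpression groups. It read 5.32, 5.32, 5.17 and 5.67 log2 on Tgif1 OE, 6.09, 6.15, 6.91 and 7.03 on Tgif2 OE, and 4.13, 4.19, 4.07 and 3.99 on BirA control arrays. No 2 of these groups overlapped, and every Tgif2 OE array was above every Tgif1 OE array. The difference from BirA control was 1.28 log2 or 2.42-fold for Tgif1 OE and 2.33 log2 or 5.02-fold for Tgif2 OE relative to the median change. Tgif1 OE minus Tgif2 OE was -1.07 log2 for Gbp3 relative to the median change, where it was 0.76 for Gbp2, 1.15 for Gbp2b and 0.25 for Gbp7.

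Gbp7, linked in mouse macrophages to the oxidative killing of bacteria, had a narrower spread. Its brighter probe set read 6.29, 6.25, 6.11 and 6.195 log2 on Tgif1 OE, 5.89, 5.89, 6.13 and 6.33 on Tgif2 OE, and 4.75, 4.95, 4.997 and 4.99 on BirA control arrays. The overexpression groups overlapped each other and lay above every BirA control array. The difference from BirA control was 1.29 log2 or 2.44-fold for Tgif1 OE and 1.02 log2 or 2.03-fold for Tgif2 OE relative to the median change. The second Gbp7 probe set showed smaller differences, 0.76 log2 for Tgif1 OE and 0.80 for Tgif2 OE as deposited, again with no overlap with BirA control.

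The chromosome 5 members stayed near the bottom of the scale. Gbp6 lay between the 1.07 and 5.64 percentile of all probe sets on every array, and Gbp8 between the 0.946 and 4.35 percentile. Gbp6 read 2.77, 2.83, 2.99 and 2.91 log2 on Tgif1 OE, 3.11, 3.21, 3.10 and 3.15 on Tgif2 OE, and 2.74, 2.79, 2.80 and 2.80 on BirA control arrays. Its Tgif2 OE arrays were all above the others, by 0.24 log2 relative to the median change over BirA control, and its Tgif1 OE arrays overlapped BirA control. Gbp8 overlapped between all 3 groups, with differences from BirA control of 0.00 log2 for Tgif1 OE and 0.00 relative to the median change for Tgif2 OE. At such low intensity the array gives no measure of whether these genes were transcribed.

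All arrays were above BirA control for 4 of the 6 genes on Tgif1 OE, where 12.5% of all genes had that property, and for 5 of the 6 on Tgif2 OE, where 26.4% had it. On no member were all arrays below BirA control, against 10.6% of all genes on Tgif1 OE and 6.23% on Tgif2 OE. Since the family was chosen on these arrays, nothing is read from these shares. The median difference over the 6 genes was 1.27 log2 for Tgif1 OE and 1.40 for Tgif2 OE, both relative to the all-gene median. The comparisons share the BirA control arrays.

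**Figure D1:**
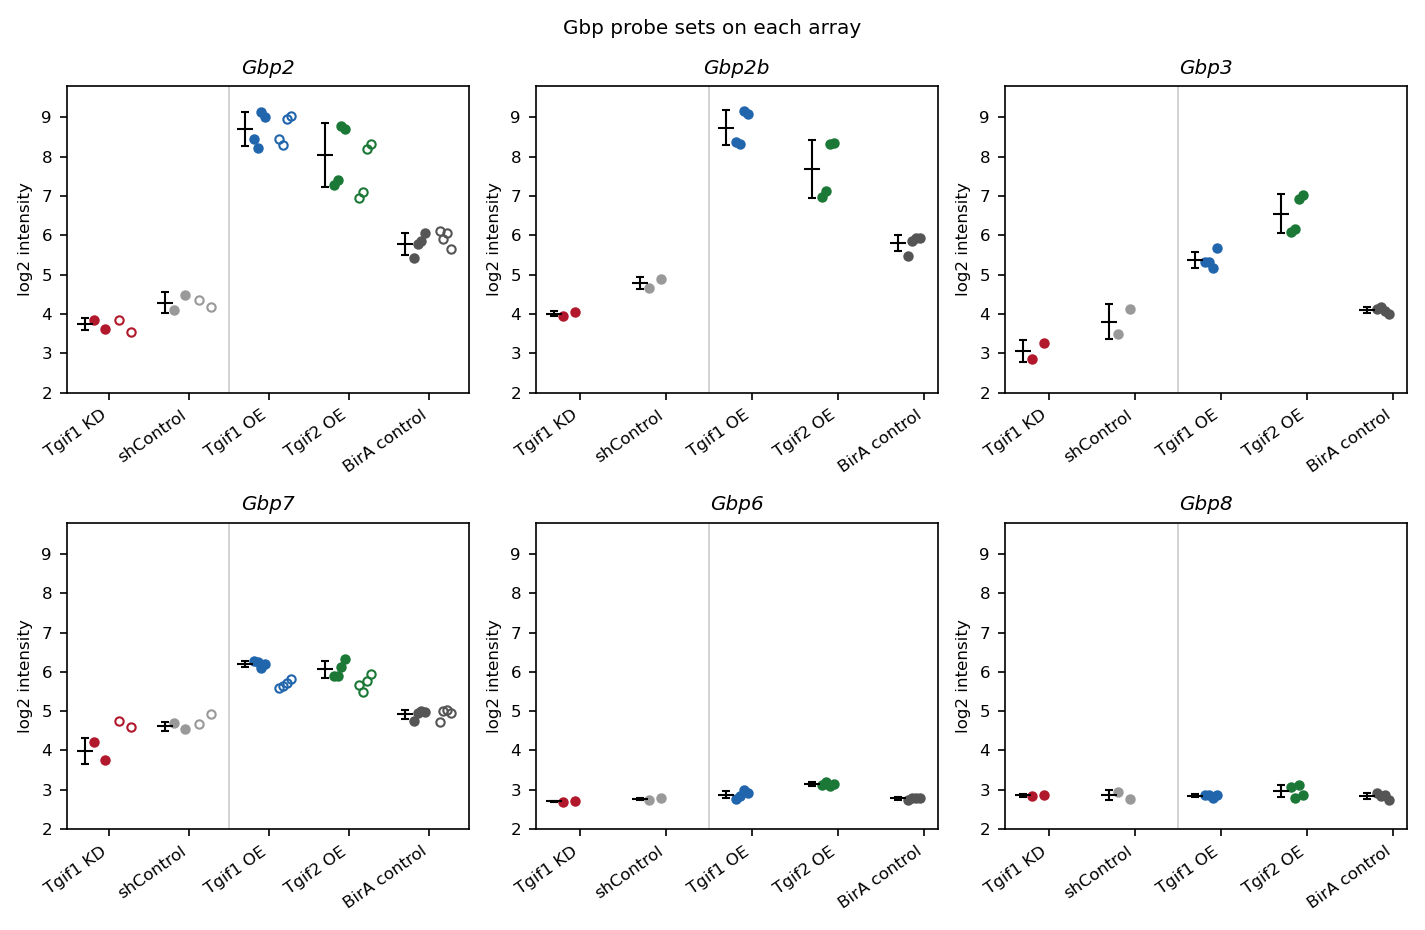
Log2 intensity of the Gbp probe sets on each of the 16 arrays, 1 panel per gene, with the groups along the horizontal axis; filled points are the brighter or only probe set, open points a second probe set, and the black marks the mean and SD of the filled points. Gbp2, Gbp2b, Gbp3 and Gbp7 lie higher on every Tgif1 OE and Tgif2 OE array than on any BirA control array, and Gbp6 and Gbp8 lie near 3 log2 throughout.

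**Figure D2:**
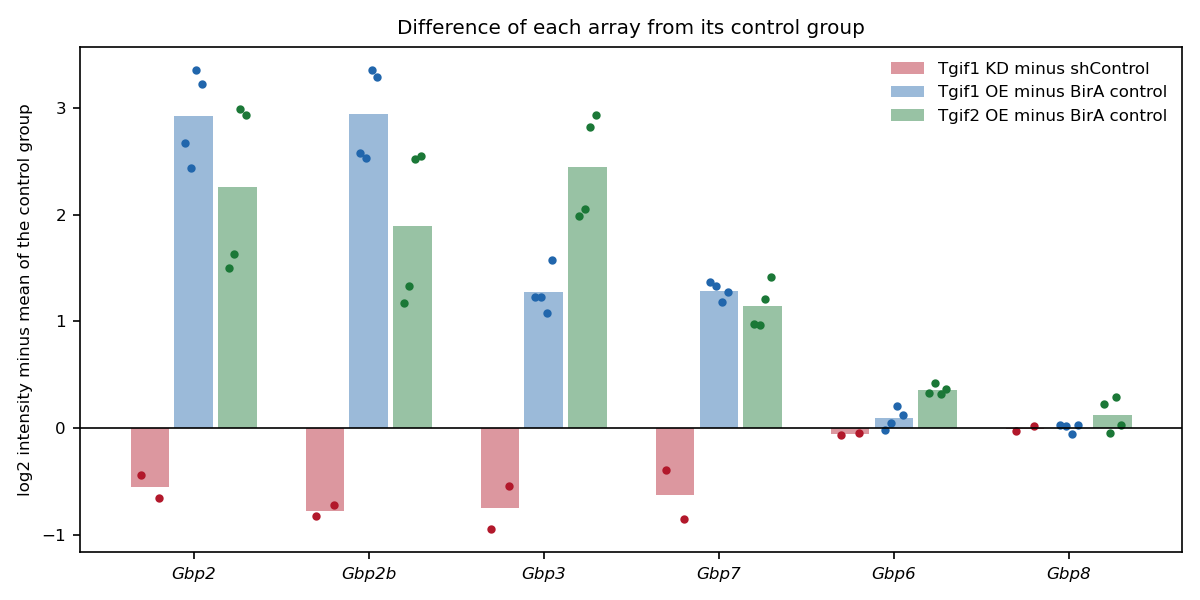
Log2 intensity of each array minus the mean of its control group (vertical axis), for the 6 genes; bars are group means, points are arrays, and colours mark Tgif1 KD minus shControl, Tgif1 OE minus BirA control and Tgif2 OE minus BirA control as deposited. For Gbp3 every Tgif2 OE array lies above every Tgif1 OE array, and the knockdown arrays of Gbp2, Gbp2b, Gbp3 and Gbp7 lie below 0.

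Within the overexpression groups the arrays numbered 3 and 4 stood apart from those numbered 1 and 2 for several members. On Tgif2 OE the mean of arrays 3 and 4 exceeded that of arrays 1 and 2 by 1.40 log2 for Gbp2, 1.29 for Gbp2b, 0.85 for Gbp3 and 0.34 for Gbp7, with no overlap in any of the 4 genes. On Tgif1 OE the gap was 0.73 for Gbp2 and 0.77 for Gbp2b, also with no overlap, and 0.10 for Gbp3 with an overlap. Gbp7 ran the other way on Tgif1 OE, at -0.12. On BirA control the gap was 0.36 for Gbp2, 0.25 for Gbp2b and -0.13 for Gbp3. The second Gbp2 probe set gave -0.14 on BirA control, with an overlap.

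Gaps of at least 1 log2 between these pairs were found in 94 of 12393 genes (0.759%) on Tgif2 OE, 38 (0.307%) on Tgif1 OE and 35 (0.282%) on BirA control. Taken within the pairs, Gbp2 differed from BirA control by 2.74 log2 in arrays 1 and 2 and by 3.11 in arrays 3 and 4 for Tgif1 OE, and by 1.74 and 2.78 for Tgif2 OE as deposited. The corresponding values of Gbp2b were 2.68 and 3.197 for Tgif1 OE, and 1.38 and 2.41 for Tgif2 OE. The direction was the same in either pair for these genes, for Gbp3 (1.16 and 1.39 for Tgif1 OE, 1.96 and 2.94 for Tgif2 OE) and for Gbp7 (1.42 and 1.16 for Tgif1 OE, 1.04 and 1.24 for Tgif2 OE). The labels do not say what a replicate number marks. RNA measures split the same way: the 5′ minus 3′ signal of the Gapdh control probe sets was -0.24 and -0.34 log2 on Tgif1 OE arrays 1 and 2, with -0.02 and -0.08 on arrays 3 and 4. On Tgif2 OE it was -0.17 and -0.19 on arrays 1 and 2, with -0.04 and -0.06 on arrays 3 and 4, and on BirA control -0.11 and -0.13, with -0.05 and -0.04. That of Actb was also lower on arrays 1 and 2 than on arrays 3 and 4 in each of the 3 groups, with no overlap. Their part in the split was not tested.

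**Figure D3:**
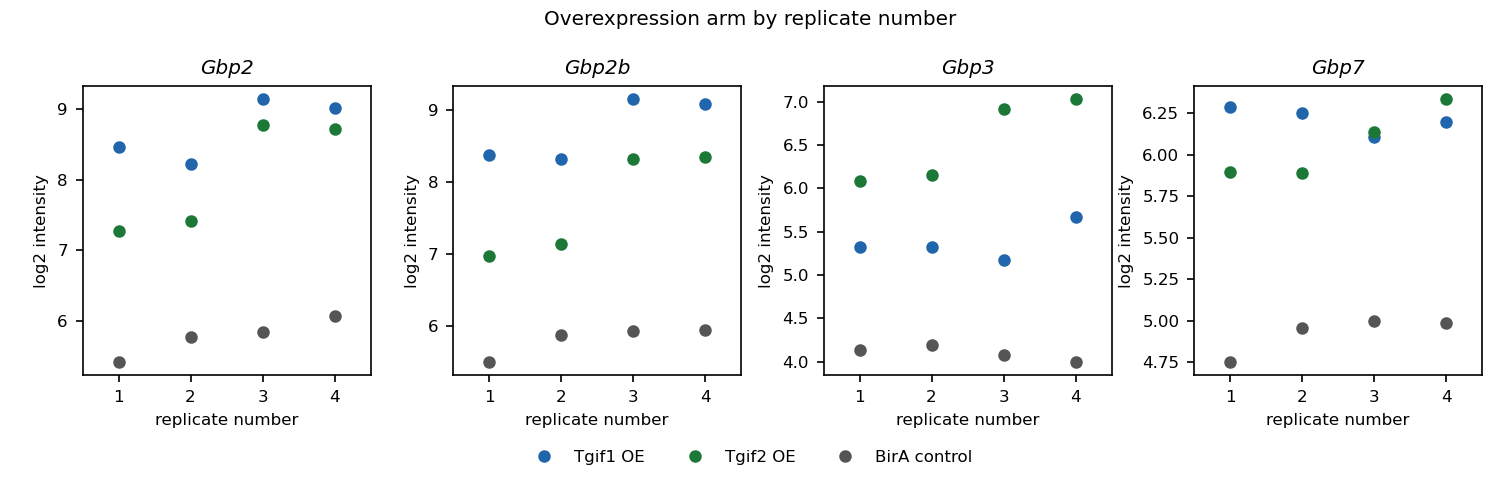
Log2 intensity of the 4 chromosome 3 members (vertical axis, a separate scale per panel) by replicate number (horizontal axis) on the Tgif1 OE, Tgif2 OE and BirA control arrays. Arrays 3 and 4 lie above arrays 1 and 2 for Gbp2 and Gbp2b in both overexpression groups, and for Gbp3 and Gbp7 on Tgif2 OE.

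The Tgif1 knockdown is the comparison in which the family could be tested. The probe set of each gene was still chosen by its mean over all 16 arrays, overexpression arrays included. Of the 6 genes, Gbp7 fell, while 5 missed the threshold (limma, Benjamini-Hochberg over all genes, adjusted p under 0.05). Across all genes 25.4% passed, 12.9% lower and 12.5% higher, so 1 of 6 is a share near the background. All 6 differences were negative, but so was the all-gene median, at -0.05 log2. Gbp6 (-0.05) and Gbp8 (-0.01), both near the floor of the array, were close to it. The median of the 6 was -0.59 log2, or -0.54 relative to the all-gene median.

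Gbp7 read 4.22 and 3.76 log2 on the Tgif1 KD arrays, against 4.70 and 4.54 on the shControl arrays, a fall of 0.63 ± 0.16 log2 (SE, adjusted p = 0.00828). The groups did not overlap. Its other probe set read 4.75 and 4.60 on Tgif1 KD, against 4.68 and 4.92 on shControl, and did not pass (-0.13 log2, adjusted p = 0.577). By group mean this other probe set was the brighter on Tgif1 KD (4.67 against 3.99) and on shControl (4.80 against 4.62). The called probe set was the brighter over all 16 arrays only through the Tgif1 OE and Tgif2 OE arrays, on which the family was chosen. Leaving out Tgif1 KD replicate 2 (-0.40 log2, adjusted p = 0.131) or shControl replicate 1 (-0.55 log2, 0.0747) ended the call.

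Gbp3 read 2.86 and 3.26 log2 on Tgif1 KD, against 3.49 and 4.12 on shControl (-0.75 ± 0.29 SE, adjusted p = 0.0727). It passed without Tgif2 OE replicate 4 (0.0472). Its change was -1.06 log2 without shControl replicate 1 and -0.43 without shControl replicate 2. Without Tgif1 KD replicate 1 it was -0.55, and without replicate 2 -0.95. Gbp2b read 3.96 and 4.06 on Tgif1 KD, against 4.67 and 4.90 on shControl (-0.77 ± 0.41, adjusted p = 0.193). Gbp2 read 3.85 and 3.63 on Tgif1 KD, against 4.10 and 4.48 on shControl (-0.55 ± 0.45, adjusted p = 0.416), and its second probe set differed by -0.58. For these 3 genes both knockdown arrays were below both control arrays, as for Gbp6, which made 5 of 6 genes against 39.1% of all genes, and 0 of 6 had both above, against 30.0% of all genes. Gbp6 (-0.05 log2, adjusted p = 0.674) and Gbp8 (-0.01, adjusted p = 0.98) were near the floor of the array.

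The standard errors of Gbp2 and Gbp2b pool the wide spread of the overexpression arrays. With the 4 knockdown-arm arrays alone, Gbp2b (adjusted p = 0.00603) and Gbp7 (0.0444) passed, Gbp2 did not (0.0517), and 2 of 6 genes were called. Without the 4 Tgif2 OE arrays, an alternative chosen after the data were seen, Gbp2b (0.0474), Gbp3 (0.0172) and Gbp7 (0.0054) passed. Over all 12393 genes 2238 fell with the knockdown-arm arrays alone and 1642 without the Tgif2 OE arrays, against 1594 in the main fit. RNA measures moved with the groups: the 5′ minus 3′ signal of the Gapdh control probe sets was -0.10 and -0.08 log2 on Tgif1 KD, against -0.22 and -0.21 on shControl arrays, and that of Actb -0.52 and -0.49 on Tgif1 KD, against -0.67 and -0.61 on shControl arrays. Their part in the result was not tested.

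Across all 5 groups Gbp2, Gbp2b and the brighter Gbp7 probe set had Tgif1 KD at the bottom, then shControl, BirA control, Tgif2 OE and Tgif1 OE. For each of the 3, the only neighbours in this order that overlapped were Tgif2 OE and Tgif1 OE. For Gbp3 the order ended with Tgif1 OE and then Tgif2 OE, and shControl and BirA control overlapped. In Gbp6 the Tgif1 KD arrays lay below the rest and the Tgif2 OE arrays above it, while shControl, BirA control and Tgif1 OE overlapped. In Gbp8 every pair of neighbours overlapped. The arms differed already between their controls, since shControl lay below BirA control on every array for Gbp2 (4.29 ± 0.27, n = 2, against 5.78 ± 0.27, n = 4, SD) and Gbp2b (4.79 ± 0.16 against 5.80 ± 0.21); tests were therefore run only within an arm, and this order across the arms is a description. In bulk RNA, fewer cells carrying a transcript and less transcript per cell cannot be told apart.

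Among the upstream factors, Irf1, the interferon regulatory factor that drives many of these genes, passed in all 3 comparisons. It fell by 0.93 ± 0.09 log2 in the Tgif1 knockdown (8.11 and 8.01 on Tgif1 KD, against 8.95 and 9.03 on shControl; adjusted p = 4.22e-06). It rose by 0.45 ± 0.07 on Tgif1 OE (adjusted p = 0.000187) and by 0.59 ± 0.07 deposited on Tgif2 OE (adjusted p = 1.22e-05; 0.47 relative to the median change), where 4 of 4 arrays of each group were above every BirA control array. Stat2 passed in none of the 3 comparisons, with adjusted p-values of 0.173, 0.599 and 0.5 for Tgif1 KD, Tgif1 OE and Tgif2 OE.

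The list of interferon receptors and of JAK, STAT and IRF factors as a whole moved in both directions. Of 20 measured genes, 2 rose and 1 fell on Tgif1 KD, 3 rose and 3 fell on Tgif1 OE (of all genes, 20.9% passed, 11.4% higher and 9.51% lower), and 7 rose and 2 fell on Tgif2 OE (of all genes, 35.4% passed, 28.7% higher and 6.69% lower; 4 and 4 after quantile normalization). Their median change relative to all genes was -0.03, 0.02 and 0.01 log2. On Tgif1 KD 12.5% of all genes rose and 12.9% fell. After quantile normalization 1715 of 12393 genes rose on Tgif2 OE and 1616 fell. Jak2, a kinase of the interferon-gamma receptor, rose by 0.73 ± 0.13 log2 in the knockdown (adjusted p = 0.000606). Tyk2, a kinase of the type I interferon receptor, fell by 0.55 ± 0.10 on Tgif1 OE (adjusted p = 0.000736) and by 0.73 ± 0.10 deposited on Tgif2 OE (adjusted p = 4.91e-05), which was -0.85 relative to the median change. Irf9, a partner of STAT2, fell by 0.64 ± 0.09 on Tgif1 OE (adjusted p = 0.000181). Of 8 measured interferon and interleukin genes that can start the response, 0 of 8 passed on Tgif1 KD, 1 rose on Tgif1 OE (Il18, 0.31 log2, adjusted p = 0.0118) and 2 rose on Tgif2 OE (Ifnb1 and Ifna2, with arrays that overlapped BirA control), where quantile normalization left 0 higher and 1 lower.

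The p47 GTPases are the other interferon-inducible GTPase family that acts on pathogen vacuoles in mouse. Of 8 measured members of that list, with Mx and atlastin genes, 0 rose and 2 fell on Tgif1 KD, 3 rose and 0 fell on Tgif1 OE, and 3 rose and 0 fell on Tgif2 OE (2 and 0 after quantile normalization). Of all genes, 12.9% fell on Tgif1 KD, and 11.4% and 28.7% rose on Tgif1 OE and Tgif2 OE. Quantile normalization gave 1715 of 12393 genes higher on Tgif2 OE. The list's median change relative to all genes was -0.10, 0.13 and 0.09 log2. Irgm1, a regulator of that family, read 4.87 and 4.82 log2 on Tgif1 KD, against 6.05 and 6.21 on shControl (-1.29 ± 0.19, adjusted p = 0.000162). It averaged 7.96 ± 0.20 on Tgif1 OE and 8.04 ± 0.29 on Tgif2 OE, against 7.34 ± 0.20 on BirA control (SD, n = 4 each). It rose by 0.62 ± 0.14 on Tgif1 OE (adjusted p = 0.00435) and by 0.69 ± 0.14 deposited on Tgif2 OE (adjusted p = 0.00128; 0.57 relative to the median change).

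Irgm2, another regulatory member, rose by 1.00 ± 0.11 log2 on Tgif1 OE (adjusted p = 1.3e-05) and by 0.59 ± 0.11 deposited on Tgif2 OE (adjusted p = 0.00059; 0.47 relative to the median change). Its fall of 0.43 in the knockdown (adjusted p = 0.0475) was lost when any of 11 single arrays was left out, with adjusted p up to 0.342. Igtp, another member of that family, rose by 0.66 ± 0.12 on Tgif1 OE (adjusted p = 0.00113). On Tgif2 OE it overlapped BirA control, and its call there (0.33 ± 0.12 deposited, adjusted p = 0.0485; 0.21 relative to the median change) was lost under median centring, under quantile normalization and without any of 13 single arrays, with adjusted p up to 0.204. In the knockdown Igtp did not pass (-0.24, adjusted p = 0.355).

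Of 23 measured antigen presentation genes and other interferon-gamma targets, 2 rose and 5 fell on Tgif1 KD, 10 rose and 1 fell on Tgif1 OE, and 16 rose and 0 fell on Tgif2 OE (11 and 0 after quantile normalization). Of all genes, 12.5% rose and 12.9% fell on Tgif1 KD, 11.4% and 9.51% on Tgif1 OE, and 28.7% and 6.69% on Tgif2 OE. With quantile normalization 1715 of 12393 genes rose on Tgif2 OE and 1616 fell. The list's median change relative to all genes was -0.02, 0.21 and 0.28 log2 in these comparisons. Psmb8, an immunoproteasome subunit, read 7.10, 7.09, 7.19 and 7.18 log2 on Tgif1 OE, 6.66, 6.47, 6.92 and 7.06 on Tgif2 OE, and 5.61, 5.57, 5.80 and 5.59 on BirA control arrays. It rose by 1.496 ± 0.11 on Tgif1 OE (adjusted p = 6.1e-07) and by 1.13 ± 0.11 deposited on Tgif2 OE (adjusted p = 4.77e-06; 1.01 relative to the median change).

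In the knockdown Psmb8 fell by 0.66 ± 0.16 log2 (adjusted p = 0.00561), a call lost without Tgif1 KD replicate 1 or shControl replicate 2, with adjusted p up to 0.0741. The immunoproteasome subunits Psmb9 (-0.74 ± 0.11, adjusted p = 0.000102) and Psmb10 (-0.68 ± 0.10, adjusted p = 0.000195) fell there too. The class II gene H2-Eb1 rose in the knockdown (0.80 ± 0.13, adjusted p = 0.000242). Cxcl10, a chemokine induced by interferons, averaged 6.57 ± 0.66 on Tgif1 OE and 6.53 ± 0.47 on Tgif2 OE, against 4.47 ± 0.21 on BirA control (SD, n = 4 each; 2.10 ± 0.28, adjusted p = 8.36e-05, and 2.06 ± 0.28 deposited, adjusted p = 6.31e-05, or 1.94 relative to the median change). Tapbp, which loads peptides on class I molecules, rose by 0.87 on Tgif1 OE (adjusted p = 8.36e-05), while its other probe set gave 0.11.

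Antiviral genes moved both ways. Of 24 measured, 2 rose and 4 fell on Tgif1 KD, 3 rose and 3 fell on Tgif1 OE, and 6 rose and 1 fell on Tgif2 OE (2 and 2 after quantile normalization), with a median relative to all genes of -0.07, 0.04 and -0.03 log2. The shares of all genes that rose were 12.5%, 11.4% and 28.7%, and that fell 12.9%, 9.51% and 6.69%. Quantile normalization put 1715 of 12393 genes higher on Tgif2 OE and 1616 lower. Oas1a, an activator of RNase L, fell by 1.02 ± 0.19 log2 in the knockdown (adjusted p = 0.000817), as did Zbp1, a nucleic acid sensor, by 0.75 ± 0.16 (adjusted p = 0.00233). On Tgif1 OE the tetherin gene Bst2 rose by 0.67 ± 0.13 (adjusted p = 0.00141), and Ifitm1, an interferon-induced membrane protein gene, fell by 0.64 ± 0.09 (adjusted p = 0.000107).

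NF-kB and TNF family genes were listed because NF-kB acts with IRF1 on several interferon targets. Of 17 measured, 1 rose and 1 fell on Tgif1 KD, 6 rose and 0 fell on Tgif1 OE, and 6 rose and 0 fell on Tgif2 OE (4 and 1 after quantile normalization), with a median relative to all genes of 0.03, 0.13 and 0.03 log2. On Tgif1 OE 11.4% of all genes rose, and on Tgif2 OE 28.7%. For Tgif2 OE quantile normalization put 1715 of 12393 genes higher and 1616 lower. On Tgif1 KD 12.5% of all genes rose and 12.9% fell. Ltb, a membrane-bound ligand of the TNF family, read 8.50, 8.59, 9.98 and 10.02 log2 on Tgif1 OE, 7.61, 7.37, 9.66 and 9.68 on Tgif2 OE, and 5.84, 5.96, 6.5001 and 6.61 on BirA control arrays. As with the brighter Gbp2 probe set, arrays 3 and 4 lay above arrays 1 and 2 in each of these groups. Unlike Gbp2, Ltb was higher on Tgif1 KD than on shControl, at 6.94 against 6.17 log2. Ltb rose by 3.05 ± 0.50 on Tgif1 OE (adjusted p = 0.00051) and by 2.35 ± 0.50 deposited on Tgif2 OE (adjusted p = 0.00226; 2.24 relative to the median change). The NF-kB subunit gene Rela rose by 0.44 ± 0.06 on Tgif1 OE (adjusted p = 9.75e-05) and by 0.39 ± 0.06 deposited on Tgif2 OE (adjusted p = 0.000177; 0.27 relative to the median change).

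Genes that modify the GTPases or act after them were listed too. Of all genes, 12.5% rose and 12.9% fell on Tgif1 KD, 11.4% and 9.51% on Tgif1 OE, and 28.7% and 6.69% on Tgif2 OE. After quantile normalization 1715 of 12393 genes rose and 1616 fell on Tgif2 OE. Of 6 measured prenylation enzymes, 3 rose and 1 fell on Tgif1 KD, 0 of 6 passed on Tgif1 OE, and 2 rose and 0 fell on Tgif2 OE (0 and 1 after quantile normalization); Icmt, which methylates prenylated proteins, fell by 0.44 log2 in the knockdown (adjusted p = 0.00063). Of 11 autophagy conjugation genes, 4 rose and 1 fell on Tgif1 KD, 1 rose and 3 fell on Tgif1 OE, and 4 rose and 1 fell on Tgif2 OE (2 and 1 after quantile normalization). The ubiquitin-like Gabarap rose by 0.62 in the knockdown (adjusted p = 0.000582), as did the cargo receptor Sqstm1 by 0.50 (adjusted p = 0.00161). Of 6 measured inflammasome and pyroptosis genes, 0 of 6 passed on Tgif1 KD, 0 rose and 2 fell on Tgif1 OE, and 1 rose and 0 fell on Tgif2 OE (0 and 2 after quantile normalization). Pycard, the inflammasome adaptor, fell by 0.39 on Tgif1 OE (adjusted p = 0.00384), while its other probe set gave -0.15.

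**Figure D4:**
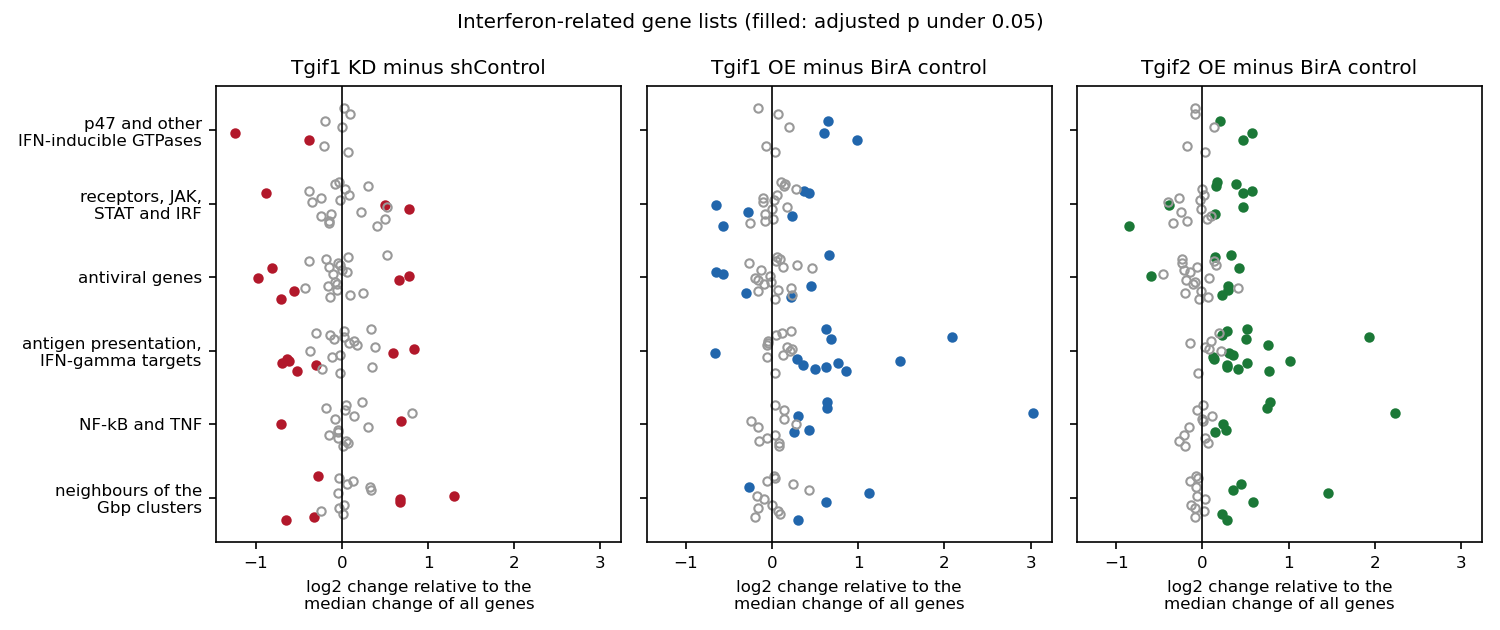
Log2 change of each gene relative to the all-gene median (horizontal axis) for 6 gene lists, in the Tgif1 KD minus shControl, Tgif1 OE minus BirA control and Tgif2 OE minus BirA control comparisons; filled points passed an adjusted p under 0.05 on the deposited values. Filled points of the antigen presentation list lie to the right of 0 for 10 genes on Tgif1 OE and 16 on Tgif2 OE.

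The genes next to the clusters were examined to see whether the difference ran across the region. Of 24 neighbours, 6 on each side of each cluster, 16 had a probe set. On Tgif1 KD 3 rose and 3 fell, on Tgif1 OE 3 rose and 1 fell, and on Tgif2 OE 6 rose and 0 fell (4 and 1 after quantile normalization). In these comparisons 12.5%, 11.4% and 28.7% of all genes rose, and 12.9%, 9.51% and 6.69% fell. Quantile normalization put 1715 of 12393 genes higher and 1616 lower on Tgif2 OE. Nearest to the chromosome 3 cluster, Pdlim5 and Kyat3 lie on either side. On Tgif1 KD they averaged 9.25 and 8.70 log2, against 8.62 and 8.42 on shControl. Their Tgif1 OE changes were -0.08 log2 for Pdlim5 (adjusted p = 0.771) and -0.26 for Kyat3 (adjusted p = 0.0202), a call that ended when Tgif1 OE replicate 4 or BirA control replicate 3 was left out (adjusted p up to 0.0567). On Tgif2 OE the deposited changes were 0.14 for Pdlim5 (0.03 relative to the median change) and 0.04 for Kyat3 (-0.08 relative), and neither deposited change passed (adjusted p = 0.443 and 0.693).

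On chromosome 5, Lrrc8c, a subunit of a volume-regulated anion channel, rose by 1.14 log2 on Tgif1 OE (adjusted p = 0.00041) and by 1.58 ± 0.18 deposited on Tgif2 OE (adjusted p = 1.75e-05; 1.46 relative to the median change). It lies at 105519345 to 105613018, beyond Gbp6, which was near the floor of the array. Zfp644, also on chromosome 5, was called in all 3 comparisons. It changed by -0.69 log2 on Tgif1 KD, 0.32 on Tgif1 OE and 0.40 deposited on Tgif2 OE (0.28 relative to the median change). Its other probe sets gave -0.75 to -0.24 on Tgif1 KD, 0.16 to 0.25 on Tgif1 OE and -0.01 to 0.67 on Tgif2 OE. Pdha2, on chromosome 3, averaged 4.89 on Tgif1 KD, against 3.64 on shControl. On chromosome 3, Rap1gds1, an exchange factor for small GTPases, rose by 0.64 on Tgif1 OE (adjusted p = 2.92e-05), by 0.71 ± 0.07 deposited on Tgif2 OE (adjusted p = 7.21e-06; 0.59 relative to the median change) and by 0.63 on Tgif1 KD (adjusted p = 0.000355).

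The genes most like Gbp2 over the 16 arrays were ranked by Pearson's r among 861 genes outside the family with an SD of at least 0.5 log2. They were Prom1 (r = 0.991), Pou3f1 (0.990), Tpm1 (0.989), Myl9 (0.989), Epha1 (0.987), Tagln (0.986), Tmem47 (0.984), Erap1 (0.983), Ier5 (0.983) and Tmem54 (0.980). Within the family r with Gbp2 was 0.993 for Gbp2b, 0.970 for Gbp7, 0.868 for Gbp3, 0.668 for Gbp6 and 0.171 for Gbp8. The 16 points share 5 groups and 2 arms, so a gene that differs between the arms as Gbp2 does gets a high r from that alone.

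These genes come from different classes. Pou3f1 encodes a POU factor of the epiblast, Prom1 the surface protein CD133, Erap1 an aminopeptidase that trims peptides for class I molecules, and Tpm1, Myl9 and Tagln encode parts of the contractile cytoskeleton. Tagln averaged 10.50 ± 0.47 log2 on Tgif1 OE and 9.59 ± 0.98 on Tgif2 OE, against 7.01 ± 0.29 on BirA control (SD, n = 4 each). Erap1 averaged 6.48 ± 0.15 on Tgif1 OE and 6.04 ± 0.31 on Tgif2 OE, against 4.72 ± 0.12 on BirA control (SD, n = 4 each).

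**Figure D5:**
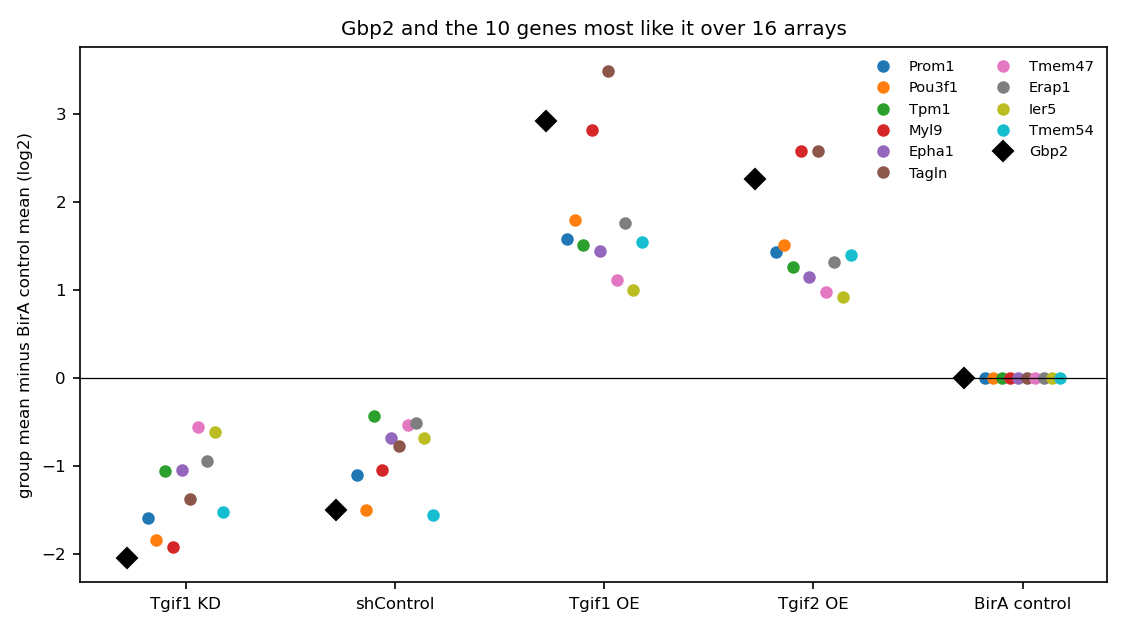
Group mean minus the BirA control mean, in log2 (vertical axis), for Gbp2 (diamonds) and the 10 genes most like it (circles) in the 5 groups along the horizontal axis. All 11 genes lie above 0 on Tgif1 OE and Tgif2 OE and below 0 on Tgif1 KD and shControl, as the choice by likeness fixes.

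Markers of other cell types moved with the groups. Tagln is also a fibroblast marker. Of 15 fibroblast markers, all measured, 7 rose and 0 fell on Tgif1 OE, where 11.4% of all genes rose. On Tgif2 OE 6 rose and 0 fell, where 28.7% of all genes rose. After quantile normalization 3 rose and 0 fell there, where 1715 of 12393 genes rose. The summed linear intensity of these markers ran from 4282 to 4675 on Tgif1 OE and from 4127 to 4603 on Tgif2 OE. On BirA control arrays it ran from 2997 to 3391. Without Tagln the groups overlapped, with sums of 2620 to 3240 on Tgif1 OE and 3099 to 3762 on Tgif2 OE, against 2871 to 3228 on BirA control arrays. The fibronectin gene Fn1 made up most of the sums without Tagln, so they tell little of the other markers. It averaged 11.18 ± 0.28 log2 on Tgif1 OE and 11.47 ± 0.23 on Tgif2 OE, against 11.38 ± 0.07 on BirA control (SD, n = 4 each). Besides Tagln, the actin gene Acta2 rose by 1.75 ± 0.31 log2 on Tgif1 OE (adjusted p = 0.000989) and by 1.66 ± 0.31 deposited on Tgif2 OE (0.000933). Its other probe set gave 0.01 log2 in either comparison. The collagen gene Col5a2 rose by 1.09 ± 0.25 (0.00646) and 1.19 ± 0.25 deposited (0.00229), with 0.71 and 0.77 from its other probe set. Col1a2, Col3a1, Dcn and S100a4 were the others that rose on Tgif1 OE. The collagen gene Col1a1 did not pass in either comparison (4.48 and 4.33 log2 on Tgif1 OE and Tgif2 OE, against 4.32 on BirA control), nor did Pdgfra (3.62 and 3.69, against 3.67) or Lum (2.89 and 3.09, against 2.89).

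On Tgif1 KD 1 of the 15 fibroblast markers rose and 1 fell, with sums of 5156 to 5336 on Tgif1 KD, against 4333 to 4564 on shControl arrays. Fn1 made up most of these sums too, at a mean of 12.20 log2 on Tgif1 KD and 11.86 on shControl. Of 11 measured macrophage and blood markers, a type rich in these GTPases, 1 rose and 0 fell on Tgif1 KD, 0 rose and 2 fell on Tgif1 OE, and 1 rose and 2 fell on Tgif2 OE. Their sums ran from 2025 to 2048 on Tgif1 KD, against 1364 to 1440 on shControl arrays, and from 885 to 1002 on Tgif1 OE and 833 to 1019 on Tgif2 OE, against 1408 to 1666 on BirA control arrays. Laptm5, a lysosomal membrane protein gene, made up most of these sums, and without it they ran from 426 to 437 on Tgif1 KD, against 419 to 425 on shControl arrays, and from 283 to 289 on Tgif1 OE and 281 to 308 on Tgif2 OE, against 334 to 385 on BirA control arrays. Cd68 was the brightest of the markers left, at 6.71 and 6.66 log2 on Tgif1 OE and Tgif2 OE, against 7.55 on BirA control. Those sums therefore tell little of the other markers. The blood marker Ptprc stayed low, at 3.29 and 3.39 log2 on Tgif1 OE and Tgif2 OE, against 3.11 on BirA control. Of 8 endothelial markers, 0 rose and 1 fell on Tgif1 KD, 0 of 8 passed on Tgif1 OE, and 1 rose and 0 fell on Tgif2 OE (1 and 2 after quantile normalization). Of the 10 embryonic stem cell markers, 2 rose and 0 fell on Tgif1 KD, 0 rose and 6 fell on Tgif1 OE, and 1 rose and 1 fell on Tgif2 OE (0 and 2 after quantile normalization). Of all genes, 12.5% rose and 12.9% fell on Tgif1 KD, 11.4% and 9.51% on Tgif1 OE, and 28.7% and 6.69% on Tgif2 OE. With quantile normalization 1715 of 12393 genes rose on Tgif2 OE, and 1616 fell. No marker is at 0 on an array of this kind. The part of the marker levels in the results was not tested.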

How the data were processed

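Deposited values were log2 intensities of probe sets. RMA produced them, per the submitters' processing notes, which add limma for the Tgif2 OE arrays and state no version of either. Values ran from 2.19 to 14.79. Of 22690 probe sets, 64 were controls, 20380 had a single gene symbol, 691 had several and 1555 had none. Symbols came from the platform annotation; 20351 probe sets matched the reference table by gene number. The brightest probe set on average over the 16 arrays stood for its gene. Dim genes were kept, and detection calls were not used. The number of arrays limits the precision.

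limma 3.58.1 (R 4.3.3) fitted the 5 group means on all 16 arrays at once. Within a comparison p was adjusted over 12393 genes (Benjamini-Hochberg), and a call needed an adjusted p under 0.05. The fit was tested on simulated data. Values after ± are standard errors unless an SD is named. Alternatives were quantile normalization, median centring, the mean of a gene's probe sets, leaving out the dimmest 33.3% of genes, each array or pairs of overexpression replicates, the replicate block, a trend and robust fit, the knockdown arm alone, and tests of every probe set. The deviations of arrays with the same number from their group means correlated at 0.31 to 0.56 in the overexpression arm (12 pairs) and at 0.003 in the knockdown arm. An array's best match bore its own number in 0 of 12 cases in the overexpression arm, where the shared deviation set arrays 1 and 2 against 3 and 4. It did so in 2 of 2 cases in the knockdown arm. With 2 arrays per group that count can only be all or none, so it rests on the sign of a single r near 0. By the rule on correlations (over 0.1 in each of at least 3 pairs) the overexpression numbers count as paired and the knockdown numbers do not. The printed p-values come from the fit without the block.

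The members and the gene lists were chosen with earlier results of these data known. The genes named were, by rule, every Gbp gene, Tgif1, Tgif2, Stat2, Irf1, Irgm1, Igtp and Psmb8, up to 4 called genes with the largest change per list and comparison, the neighbours of the clusters, and the 10 genes most like Gbp2; 1 gene of the rule is not reported here. Among the called genes, those whose call held without single arrays were preferred, a choice made after the values were seen. Neighbours were the 6 nearest protein-coding genes on each side without a predicted name. Not all measured neighbours are named in the text. Promoter sequences and coordinates are RefSeq's for GRCm38.p6; the tables held promoters of the chromosome 3 members, and Gbp6 and Gbp8 are named only. A Tgif2 knockdown, named in the series description, is not analysed here.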

Additional observations from a re-analysis of the deposited data

Results flagged for a closer look

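Single arrays lay far from the rest of their group in 3 of the 24 groups of 4 arrays examined, where chance gives about 1 in 20. Gbp8 read 2.79 on 1 of the arrays labelled Tgif1 OE, below the other 3, which lay between 2.86 and 2.87. Gbp2b read 5.49 on BirA control replicate 1, below the other 3 at 5.86 to 5.93. Gbp6 read 2.74 on that same array, below the other 3 at 2.79 to 2.80, so these cases are not separate arrays. This array was also the lowest of its group for the brighter Gbp2 and both Gbp7 probe sets. It was the highest for the second Gbp2 probe set and for Gbp8.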

How the results depend on the processing

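The number of Gbp genes that fell in the Tgif1 knockdown, 1 of 6, depended on the arrays that set the spread. It was 4 with overexpression replicates 1 and 2 only and 4 with replicates 3 and 4 only, 2 with the knockdown arm only and 3 without the Tgif2 OE arrays, an alternative chosen after the data were seen. Leaving out single arrays gave 0 to 2, with 0 without Tgif1 KD replicate 2 and 2 without Tgif2 OE replicate 4. With the replicate block it was 3 (Gbp2b, Gbp3 and Gbp7), although the knockdown numbers were not paired. No gene rose under any of these settings. The other settings gave 1. Over all genes, 1594 of 12393 fell in the main fit. With overexpression replicates 1 and 2 only 2644 fell, and with replicates 3 and 4 only 2770. The knockdown arm only gave 2238 lower, leaving out the Tgif2 OE arrays 1642 and the replicate block 2252.

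Over the 139 distinct genes of the 10 gene lists, neighbours included, 17 rose and 18 fell on Tgif1 KD, 30 rose and 13 fell on Tgif1 OE, and 53 rose and 4 fell on Tgif2 OE. On Tgif1 KD 30 rose with overexpression replicates 1 and 2 only, 29 with replicates 3 and 4 only and 27 with the knockdown arm only, and 30 fell with replicates 3 and 4 only. Leaving out single arrays gave 9 to 20 higher (9 without Tgif1 KD replicate 1, 11 without replicate 2, 10 without either shControl array) and 11 to 19 lower (11 without Tgif1 KD replicate 1). On Tgif2 OE quantile normalization gave 29 higher and 13 lower, median centring 33 and 9, and overexpression replicates 3 and 4 only gave 10 lower. The cause of these shifts was not tested. Over all genes, 81.1% of the Tgif2 OE calls were higher as deposited and 51.5% after quantile normalization. In the main fit 12.5% of all genes rose and 12.9% fell on Tgif1 KD, 11.4% and 9.51% on Tgif1 OE, and 28.7% and 6.69% on Tgif2 OE. On Tgif1 KD that was 1552 of 12393 genes higher and 1594 lower. With overexpression replicates 1 and 2 only 2331 rose, and with replicates 3 and 4 only 2415 rose and 2770 fell. The knockdown arm only gave 2051 higher. For Tgif2 OE quantile normalization gave 1715 higher and 1616 lower, and median centring 1863 and 1452. Overexpression replicates 3 and 4 only gave 1157 lower.

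The replicate block moved none of the counts for the overexpression arm by over 1.5 times and ended none of the calls named for it. The differences of Gbp2, Gbp2b, Gbp3 and Gbp7 from BirA control kept their sign in every setting run, at 2.68 to 3.197 log2 for Gbp2b on Tgif1 OE and 1.38 to 2.41 on Tgif2 OE with the pairs of replicates. Probe sets near the floor, such as those of Gbp6 and Gbp8, cannot show small changes.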

Other observations

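A further probe set carried the symbols of both Gbp8 and Gbp4 and was left out of the family. It averaged 4.38 ± 0.07 log2 on Tgif1 KD, against 4.64 ± 0.25 on shControl (SD, n = 2 each), and 4.64 ± 0.14 on Tgif1 OE and 4.72 ± 0.12 on Tgif2 OE, against 4.56 ± 0.15 on BirA control (SD, n = 4 each).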
